A study of Mus musculus with 8 samples.

Results

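Penk, the mouse gene for proenkephalin, was followed through single-cell RNA libraries of meningeal T cells and of hippocampal glia. It was taken as the row with that symbol in each of the 4 gene matrices, which list 55487 gene identifiers; each matrix held 1 such row. The T cells were sorted as CD45+ CD3+ CD4+ cells from the meninges of perfused mice, with Foxp3-GFP mice in replicate 1, B6.WT mice in replicate 2, and treatment given as N/A for both. The hippocampal cells were CD45- Thy1- cells of Foxp3-DTR- mice (DTRneg) and Foxp3-DTR+ mice (DTRpos), both given diphtheria toxin, which kills Foxp3-expressing regulatory T cells where the receptor is carried. Each hippocampal group was 1 library of 2 pooled mice, so it has no replicate. No age was in the labels used here.

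Proenkephalin is a precursor that prohormone convertases cut at pairs of basic residues, and carboxypeptidases trim, to release enkephalins. Enkephalins act mainly on the delta and mu opioid receptors and are soon broken down by peptidases at the cell surface. In the brain Penk is best known from inhibitory neurons, but lymphocytes, fibroblasts and glial progenitors can also express it, and regulatory T cells in some tissues are among the lymphocytes that do.

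In the GRCm38 (mm10) build with GENCODE M21, Penk (ENSMUSG00000045573.9) lies at chr4:4133531-4138819 on the minus strand. Its complete protein-coding transcript has 1449 bases and 2 exons, and its coding sequence of 807 bases spans 268 codons before the stop. The stretches that encode enkephalin are shown because they are what makes this transcript an opioid messenger: capitals mark the 15 bases of the pentapeptide, and lower case marks 2 flanking codons on each side, read 5′ to 3′ on the coding strand.
Copy 1, Met-enkephalin, chr4:4134334-4134348: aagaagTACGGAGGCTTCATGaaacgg
Copy 2, Met-enkephalin, chr4:4134313-4134327: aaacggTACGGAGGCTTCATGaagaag
Copy 3, Met-enkephalin, chr4:4134226-4134240: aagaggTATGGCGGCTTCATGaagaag
Copy 4, Met-enkephalin, chr4:4134073-4134087: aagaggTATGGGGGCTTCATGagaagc
Copy 5, Met-enkephalin, chr4:4134001-4134015: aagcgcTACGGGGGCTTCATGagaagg
Copy 6, Leu-enkephalin, chr4:4133941-4133955: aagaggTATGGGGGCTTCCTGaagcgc
Copy 7, Met-enkephalin, chr4:4133848-4133862: aaaagaTACGGGGGCTTTATGcggttc

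All 7 copies lie in exon 2, the last exon, and by the 15-base core alone 6 read as Met-enkephalin and 1 as Leu-enkephalin. They use 6 distinct 15-base sequences, since copies 1 and 2 are identical. Pairs of basic codons stood on both sides of 5 copies, while copies 4 and 7 had a pair before the core and 1 basic codon after it. For copies 4 and 7 the name marks the core only, and their released peptide may extend past it. The noncoding antisense gene A830012C17Rik overlaps the upstream end of Penk, and its UMIs (unique molecular identifiers, each 1 captured RNA molecule) numbered 1 and 0 in the T cells of the 2 replicates.

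The meningeal libraries held 60890248 and 68830571 UMIs. Of their 13402 and 33575 barcodes, 8339 and 20756 carried other hashtags and were not analysed here. After filtering, 1964 and 4430 cells of the labelled hashtags were left, with medians of 3119.5 and 1738 UMIs. Of these, 1784 and 4284 met the T cell rule, and their Cd3e level was 1231 and 1372 CPM (a gene's UMIs scaled to the sum of all UMIs of those cells) against 5.89 and 1.55 CPM for Cd8a. The origin of the replicate 1 cells rests on the hashtag's name: the labelled hashtag sequence is not that of hashtag 7, and 78.7% of these T cells held UMIs of gut epithelial genes, against 0 UMIs in replicate 2. Replicate 1 cells are therefore called meningeal as labelled, and the values of replicate 2 stand beside theirs. The DTRneg and DTRpos libraries held 53484704 and 35814655 UMIs and gave 6863 and 5691 cells with medians of 6003 and 4509 UMIs. The meningeal libraries shared 554 barcodes, 7 of them among the analysed cells, and the hippocampal libraries shared 18, of which 15 were among the analysed cells. Although the hippocampal labels name neurons and glia, no cluster of these cells was named neuron-like. Each cluster was named by its best marker list only.

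Penk was found in a small share of meningeal T cells and was more frequent in those with a Foxp3 UMI, the transcription factor that defines regulatory T cells. In replicate 1, 11 of 198 Foxp3-positive cells held a Penk UMI, 5.56% (exact 95% interval 2.81 to 9.72), against 39 of 1586 Foxp3-negative cells, 2.46% (1.75 to 3.35). In replicate 2 the counts were 34 of 697, 4.88% (3.40 to 6.75), against 86 of 3587, 2.40% (1.92 to 2.95). Both Foxp3-positive shares lay above both Foxp3-negative shares, by 3.10 and 2.48 percentage points, a mean of 2.79 ± 0.44 (SD, n = 2). How many other genes would separate the groups in this way was not computed. The 95% intervals of these shares, and all others given here, cover counting error only. Over all T cells the share was 2.80% in each replicate, with 50 and 120 cells.

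**Figure D1:**
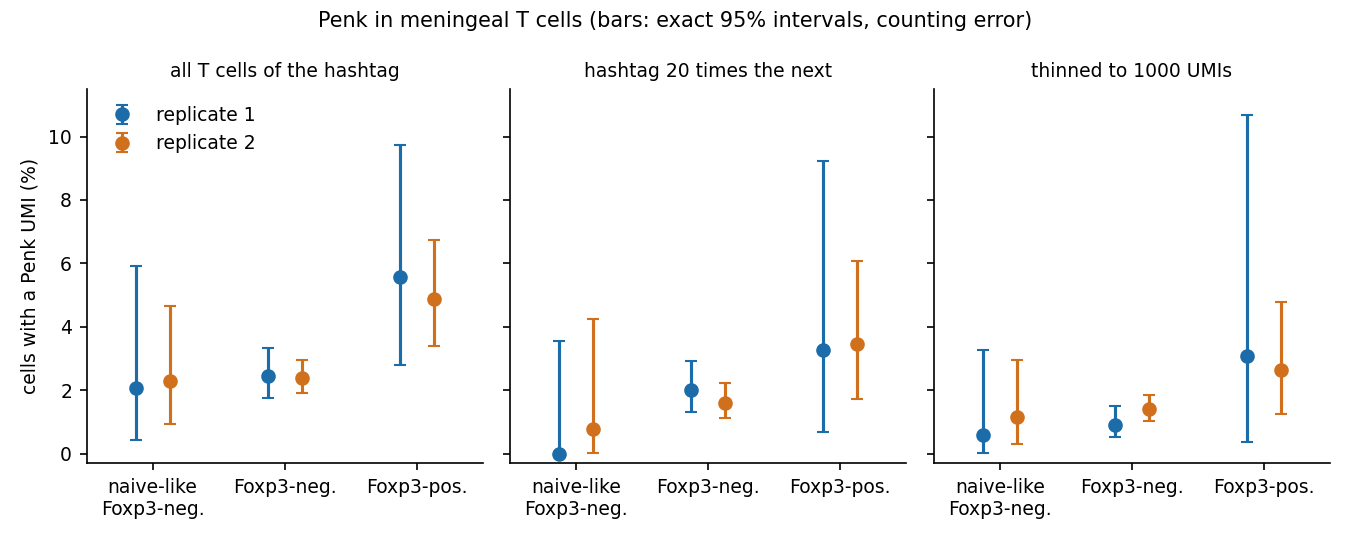
Percent of cells with at least 1 Penk UMI (vertical axis) in naive-like Foxp3-negative, all Foxp3-negative and Foxp3-positive T cells of replicates 1 and 2, with exact 95% binomial intervals, for all T cells, for cells whose hashtag count was at least 20 times the next, and for cells thinned to 1000 UMIs. In all 3 panels the Foxp3-positive points lie above the Foxp3-negative points of the same replicate, at 5.56% and 4.88% against 2.46% and 2.40% in the first panel. In the thinned panel Foxp3 status was read after thinning.

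The level followed the same order. Summed over cells, Penk stood at 57.0 CPM (43.2 to 73.9, 57 UMIs) in Foxp3-positive and 21.7 CPM (18 to 25.9, 122 UMIs) in Foxp3-negative cells of replicate 1. In replicate 2 it stood at 55.4 CPM (45.0 to 67.5, 99 UMIs) and 32.9 CPM (28.9 to 37.4, 238 UMIs). The Foxp3-positive sums of the replicates were close to each other and above both Foxp3-negative sums, with log2 ratios of 1.39 and 0.75. The share of all genes with such a separation was not computed, while 57.3% of 11242 genes had one direction in both replicates. In edgeR's quasi-likelihood test over 11242 genes the log2 change was 1.01 ± 0.24 (SE, n = 2 sums per group), with an unadjusted p of 0.0106 and a Benjamini-Hochberg adjusted p of 0.9996. That fit called no gene (0.0%), with 296 genes at an unadjusted p under 0.05, while DESeq2 called 23 genes (0.369%), without Penk at an adjusted p of 0.936. The replicate numbers tie sums from the same library and animals, and with the replicate as a block edgeR gave Penk a log2 change of 0.97 ± 0.18 with an adjusted p of 4.23e-06. Under the block 668 genes (5.94%) were called, 380 higher (3.38%) and 288 lower (2.56%). The replicates differ in mouse line as well as in animals, and with n = 2 their spread is poorly known. The log2 ratios of the 2 replicates had an SD of 0.45. The SE of 0.18 with the block is the error of a fitted change, so it cannot be set directly against that SD. Each edgeR SE given here was derived from the log2 change and the F value of its test.

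Depth and hashtag purity moved with Foxp3. The median UMI count was 4403 in Foxp3-positive and 3000 in Foxp3-negative cells of replicate 1, and 1975 and 1702 in replicate 2. Thinned to 1000 UMIs per cell, 2 of 65 Foxp3-positive and 15 of 1642 Foxp3-negative cells of replicate 1 held Penk, and 10 of 381 and 49 of 3483 in replicate 2, with differences of 2.16 and 1.22 points. Foxp3 status was read again from the thinned counts, so the groups changed along with the depth. Foxp3-positive cells fell from 198 to 65 and from 697 to 381, and Foxp3-negative cells of replicate 1 rose from 1586 to 1642. After thinning the levels were 154 against 12.8 CPM in replicate 1, from 10 UMIs in 2 cells, but 26.2 against 24.4 CPM in replicate 2. Between these changed groups the level no longer differed by Foxp3 beyond counting error in replicate 2. Thinning left out 77 and 420 cells with under 1000 UMIs, and with the block the adjusted p of Penk was then 0.498. The hashtag margin is the ratio of a cell's own hashtag count to its next highest, and a low margin marks cells that may hold material of a second cell. Of the Foxp3-positive cells 83 of 198 and 257 of 697 had a margin of 2 to 5, against 163 of 1586 and 706 of 3587 Foxp3-negative cells. Where the margin was 2 to 5, 16 of 246 T cells (6.50%) and 52 of 963 (5.4%) held Penk, against 30 of 1437 (2.09%) and 47 of 2561 (1.84%) where it was at least 20. Cells of margin 2 to 5 held 90 of the 179 and 189 of the 337 Penk UMIs. Among them, Penk was in 9.64% of Foxp3-positive and 4.91% of Foxp3-negative cells of replicate 1, and in 6.61% and 4.96% in replicate 2. Its level was 63.1 against 61.2 CPM in replicate 1 and, lower in Foxp3-positive cells, 64.1 against 72.0 CPM in replicate 2. In those cells of high margin the Foxp3-positive shares were 3 of 92 (3.26%) and 11 of 319 (3.45%) and the Foxp3-negative ones 27 of 1345 (2.01%) and 36 of 2242 (1.61%), so the difference shrank to 1.25 and 1.84 points while the log2 ratios of the levels were 2.66 and 1.25. The first of these ratios rests on 3 cells, of which 2 held 13 and 9 UMIs. At a margin of at least 5 the difference was 0.43 points in replicate 1 (3 of 115 against 31 of 1423 cells) and 2.09 in replicate 2.

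Foxp3-negative T cells with naive markers were taken as a background, since such cells should hold little Penk. Whether their Penk was free RNA was not tested. They held it in 3 of 145 cells (2.07%, median 3515 UMIs) and 7 of 305 cells (2.30%, median 2142 UMIs), close to the shares of all Foxp3-negative cells. Their level was 29.2 CPM (17.3 to 46.2) and 36.1 CPM (24.2 to 51.8), also not below that of all Foxp3-negative cells. These levels rest on 18 UMIs in 3 cells and 29 UMIs in 7 cells. With at most 1 beta chain, 0 of 126 such cells of replicate 1 held Penk, which allows a share of up to 2.38%. In replicate 2, 6 of 262 did, at 43.3 CPM. Among cells with a Cd4 UMI the naive-like level was 51.9 and 69.3 CPM, from 18 UMIs in 3 cells and 27 UMIs in 5 cells. Foxp3-positive cells with a Cd4 UMI stood at 53.2 and 59.6 CPM, so there the background level reached the Foxp3-positive one. At a hashtag margin of at least 20 the counts were 0 of 102 cells, which allows a share of up to 2.94%, and 1 of 129 cells (0.775%). With all hashtag margins kept, the share in Foxp3-negative cells as a whole was at the level of this background, and the Foxp3-positive shares stood above it with intervals that overlap it.

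T cell receptor chains from the matched libraries gave a further view. Among cells with exactly 1 productive beta chain, 6 Foxp3-positive cells of 112 (5.36%) and 25 Foxp3-negative cells of 1262 (1.98%) held Penk in replicate 1, against 14 of 388 (3.61%) and 46 of 2194 (2.10%) in replicate 2. Cells with 2 or more beta chains held Penk in 9 of 184 (4.89%) and 17 of 365 cells (4.66%). Cells with an invariant natural killer T cell chain, a lipid-reactive innate-like type that shares the CD4 gate, held it in 3 of 132 (2.27%) and 11 of 512 (2.15%). With a single beta chain the Foxp3-positive share was thus also the higher one. Its interval overlapped the Foxp3-negative one, at 1.99 to 11.3 and 1.29 to 2.91 (replicate 1). In replicate 2 they were 1.99 to 5.98 and 1.54 to 2.79. With 0 chains the Foxp3-positive level was higher in replicate 2 but lower in replicate 1. There it was 9.93 CPM, from 2 UMIs, where Foxp3-negative cells had 29.6. With 2 or more chains it was higher in replicate 1 but lower in replicate 2 (65.4 CPM, Foxp3-negative 71.5).

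Most Penk molecules came from few cells. Of 179 Penk UMIs in the T cells of replicate 1, 60.9% lay in 7 cells with at least 6 UMIs each, and of 337 in replicate 2, 60.8% lay in 19 cells. The richest cell held 39 UMIs in replicate 1 and 28 in replicate 2, and neither held a Foxp3 UMI. At the other end, 27 and 83 cells held a single Penk UMI. The 5 richest cells of replicate 1 held 39, 22, 13, 13 and 9 UMIs, and 3 of these 5 were Foxp3-positive. The 5 richest of replicate 2 held 28, 18, 18, 16 and 15, and none of these 5 had a Foxp3 UMI. The replicate 1 cells with 39 and 22 UMIs had hashtag margins of 2.36 and 2.97, near the minimum of 2.

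**Figure D2:**
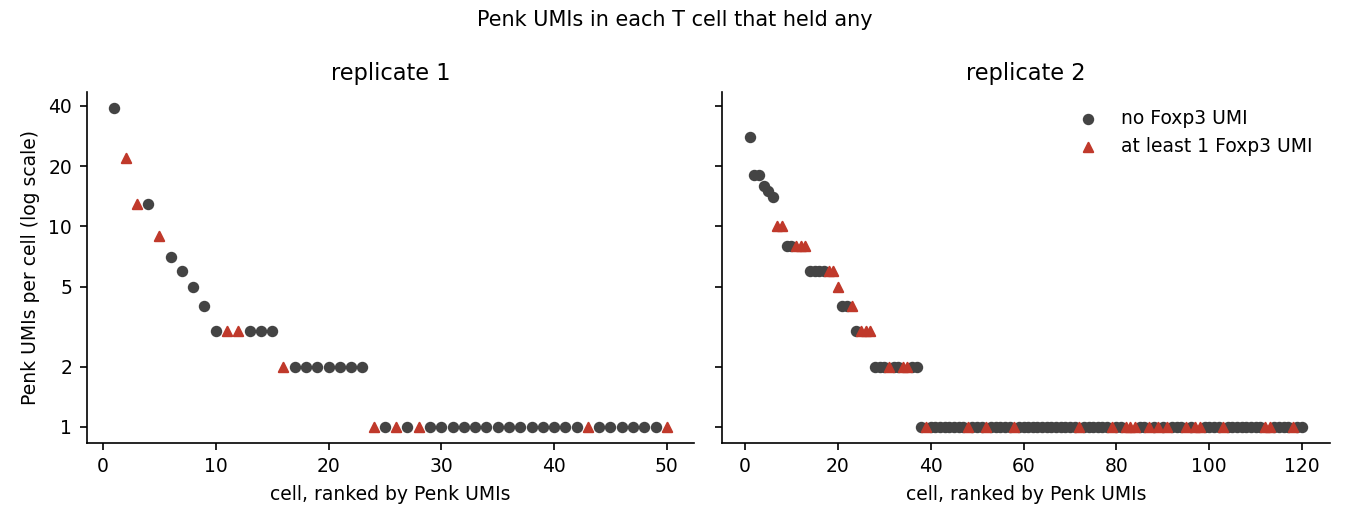
Penk UMIs per cell (log scale) in each T cell with at least 1, ranked from the richest, for replicates 1 and 2; triangles mark cells with a Foxp3 UMI. A steep head of 7 and 19 cells with at least 6 UMIs precedes a long run of 27 and 83 cells with 1.

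Among T cell clusters built without Penk and Foxp3, 2 stood at the top in both replicates. Cluster 3, led by the costimulatory receptors Tnfrsf4 and Tnfrsf9 and by Klrg1, Ikzf2 and Tigit, held Penk in 24 of 297 cells (8.08%) and 47 of 544 cells (8.64%). It held 48.0% and 39.2% of all Penk-positive T cells, at 86.1 and 117 CPM, and 41.8% and 51.5% of its cells had a Foxp3 UMI. Cluster 5, led by the chemokine genes Ccl1, Ccl4, Ccl3 and Xcl1 with Ifng and Il2, held Penk in 7 of 62 cells (11.3%) and 8 of 120 cells (6.67%), with Foxp3 in 6.45% and 15%. Penk was therefore not limited to clusters rich in Foxp3. In cluster 3, 58.6% and 51.1% of cells had a hashtag margin under 5, and in cluster 5 8.06% and 20% did. At a margin of at least 20, Penk was in 7 of 84 (8.33%) and 11 of 163 (6.75%) cells of cluster 3, and in 7 of 56 (12.5%) and 4 of 72 (5.56%) cells of cluster 5.

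Other clusters held less. Cluster 6, led by Ikzf2, Bmyc and Il2ra and with Foxp3 in 25.8% and 46.2% of its cells, held Penk in 3.23% and 2.79%. The cluster led by Igfbp4 and Ccr7, a chemokine receptor gene of naive and central memory cells, held it in 0 of 98 cells, which allows a share of up to 3.06%, and in 1 of 177 cells (0.565%). Clusters led by S1pr1 and Klf2 (0.324% and 1.41%), by the cytotoxic genes Ccl5 and Nkg7 (1.22% and 1.03%) and by natural killer receptors (1.56% and 1.70%) were also low. The intervals of clusters 3 and 5 overlap each other, and in replicate 1 both overlap that of cluster 6. The intervals of cluster 3 lie above that of the cytotoxic cluster in both replicates. These shares are a description, since clusters were formed from the same cells.

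**Figure D3:**
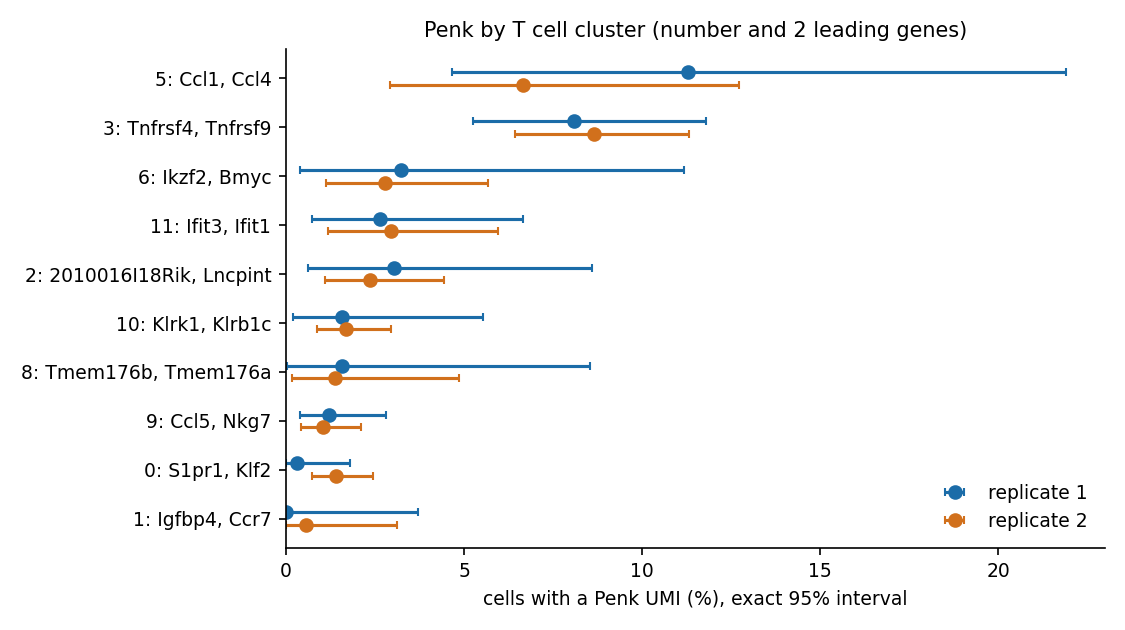
Percent of cells with a Penk UMI (horizontal axis, exact 95% intervals) in each T cell cluster of at least 50 cells in both replicates, labelled by cluster number and 2 leading genes. Clusters 5 and 3 lie highest, at 11.3% and 8.08% in replicate 1, and the cluster led by Igfbp4 and Ccr7 lowest.

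Penk-positive T cells carried more regulatory T cell transcripts than Penk-negative T cells. Foxp3 was found in 22% of Penk-positive against 10.8% of Penk-negative cells in replicate 1 and in 28.3% against 15.9% in replicate 2. Ikzf2, which encodes the regulatory T cell factor Helios, was found in 56.0% against 26.8% and 58.3% against 24.8%, and Il2ra, the high-affinity interleukin-2 receptor chain, in 26.0% against 13.4% and 24.2% against 12.9%. At least 1 of the 3 was found in 33 of 50 (66.0%) and 80 of 120 (66.7%) Penk-positive cells, against 35.1% and 37.5% of Penk-negative cells, so many without a Foxp3 UMI carried Ikzf2 or Il2ra. Penk-positive cells were deeper, with median UMIs of 3715.5 against 3071.5 and 2288 against 1723. More of them had a hashtag margin under 5, 32.0% against 13.3% and 43.3% against 21.9%, or 2 or more beta chains, 18% against 10.1% and 14.2% against 8.36%. The part of depth and of doublets in these shares was not tested.

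Sums of Penk-positive and Penk-negative cells were then compared over 11005 genes. Without the block edgeR called 0 genes (0.0%), with 366 at an unadjusted p under 0.05, and DESeq2 called 10 (0.0909%), all higher in Penk-positive cells. With the replicate block edgeR called 181 genes (1.64%), 98 higher (0.891%) and 83 lower (0.754%), of which 149 had the same direction in both replicates. That count was 180 among Foxp3-negative cells alone, 81 at a hashtag margin of at least 20, 103 among cells with at most 1 beta chain and 472 where markers of other cell types were allowed. It was 143 with at most 5 UMIs of a gut epithelial list: the smallest p of the 181 was that of the gut gene Car1 (adjusted p 8.54e-167), which had 0 UMIs in replicate 2. Since no gene passed edgeR without the block, the 10 genes with the smallest p in that fit and one direction in both replicates are named. All 10 were higher in Penk-positive cells, each at an adjusted p of 0.9999 in edgeR without the block, and DESeq2 called 8 of them, without Trbv12-1 and Trav14-3.

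The inhibitory receptor gene Pdcd1 stood at 338 CPM in Penk-positive against 85.9 CPM in Penk-negative cells of replicate 1 and at 281 against 99.0 CPM in replicate 2, with a log2 change of 1.67 ± 0.22 and an adjusted p with the block of 6.62e-22. Tnfrsf9, which encodes the costimulatory receptor 4-1BB, stood at 608 against 127 and at 349 against 84.0 CPM (log2 change 2.09 ± 0.41, adjusted p with the block 1.13e-45). Tnfrsf4, which encodes OX40, stood at 889 against 330 and at 779 against 280 CPM (1.37 ± 0.23, 1.98e-30). For these 3 receptors both Penk-positive sums lay above both Penk-negative sums. Ikzf2 stood at 439 against 180 and at 459 against 216 CPM (1.11 ± 0.18, 6.75e-14), and Rgs16, a brake on G protein signalling, at 137 against 18.3 and at 77.0 against 23.8 CPM (2.26 ± 0.36, 4.20e-12). Rln3, the gene of the neuropeptide relaxin-3, stood at 109 against 27.9 and at 110 against 40.1 CPM (1.61 ± 0.25, 3.08e-07). Neither group overlapped the other in any of these genes, the 3 receptors included. That separation was largely set by the choice of genes with a small p and one direction in both replicates. The share of all genes without overlap was not computed.

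The remaining named genes were Bmyc (log2 change 1.49), the cystatin gene Cst7 (1.01) and the receptor segments Trbv12-1 (1.59) and Trav14-3 (1.63), whose reads may be split among near-identical family members. At a hashtag margin of at least 20 Trav14-3 reversed to -7.69, while the other 9 kept their direction. Trav14-3 had only 9 and 16 UMIs in the Penk-positive sums even before that limit, so the size of its change rests on few molecules. Tnfrsf9, Tnfrsf4, Ikzf2, Pdcd1 and Bmyc were also the 5 genes most like Penk over single cells, among 5158 genes found in at least 5% of T cells. Their correlations with Penk were weak, with r from 0.098 for Bmyc in replicate 2 to 0.185 for Pdcd1 in replicate 1, over 1784 and 4284 cells that share a library and differ in depth. In sparse counts such values only rank the genes. Among genes lower in Penk-positive cells with the block, picked after their values were seen, the chemokine receptor gene Cxcr6 stood at 278 against 530 and at 337 against 534 CPM and Ly6c2 at 169 against 358 and at 243 against 516 CPM.

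**Figure D4:**
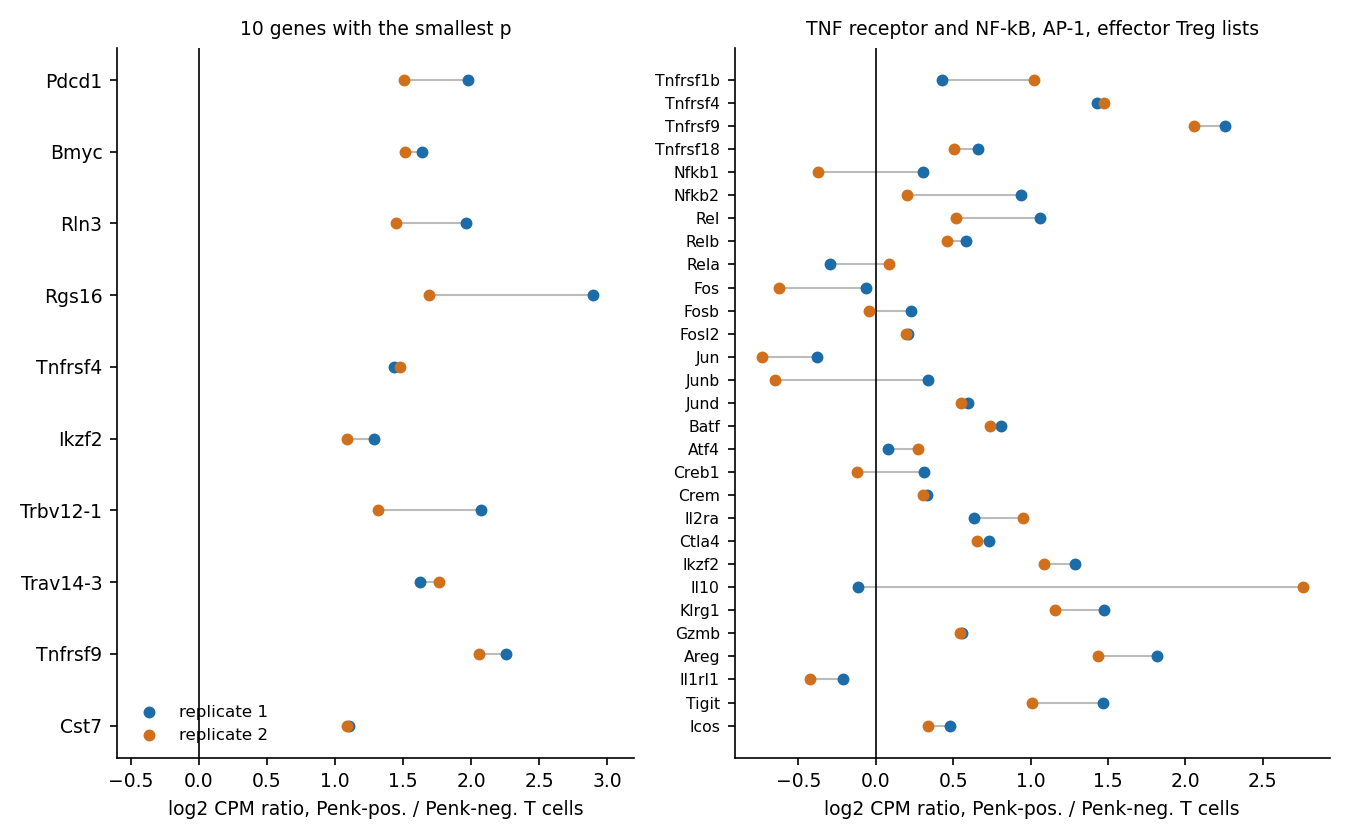
The log2 ratio of CPM in Penk-positive to Penk-negative T cells (horizontal axis) for each replicate, for the 10 genes with the smallest p (left) and for the tested genes of the TNF receptor and NF-kB, AP-1 and effector regulatory T cell lists with UMIs in all 4 sums (right). All points on the left lie above 0, while on the right Fos, Jun and Il1rl1 lie below 0 in both replicates and Il10 differs most between them.

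The gene groups are given by their counts in the same comparison. Of 9 TNF receptor family and NF-kB genes, with a median log2 change of 0.50 against -0.05 over all genes tested, Tnfrsf4, Tnfrsf9 and Tnfrsf18 rose with the block, and the 5 NF-kB subunits and Tnfrsf1b did not pass. Of 10 effector regulatory T cell genes, with a median of 0.69, 6 rose with the block (Il2ra, Ctla4, Ikzf2, Klrg1, Areg and Tigit), where 0.891% of all genes did. Of 11 AP-1, ATF and CREB genes, with a median of 0.08, Jund and Batf rose and Jun fell with the block. Without the block edgeR passed none of these genes, while DESeq2 passed Tnfrsf4 (adjusted p 0.000355), Tnfrsf9 (0.0136) and Ikzf2 (2.48e-05). Against Foxp3 itself, the block called 7 of the 9 TNF receptor and NF-kB genes, 4 of the 11 AP-1 genes and all 10 effector genes as higher, against 3.38% of all genes. The 2 comparisons use the same cells.

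The rest of the enkephalin pathway was sparse in these T cells. Of 30 genes for precursors, receptors, processing and degradation, Penk was the only one called between Foxp3-positive and Foxp3-negative cells with the block, of 13 that passed the filter on low counts, which is near the 5.94% of all genes called. Among the other precursors, Pomc, the beta-endorphin precursor, had 2 UMIs in Foxp3-positive and 16 in Foxp3-negative cells of replicate 1 and 3 and 15 in replicate 2, while Pdyn and Pnoc had 0. Of the receptors, Oprd1 and Oprk1 had no UMI in T cells and Oprm1 had 0 and 0 in replicate 1 and 1 and 1 in replicate 2. Only Ogfr, the nuclear opioid growth factor receptor, passed the filter, at 75.0 against 63.6 and at 78.4 against 69.7 CPM, with a log2 change of 0.16 and an adjusted p of 0.73 with the block. Transcripts of the delta, mu and kappa receptors were thus at or near 0 in these T cells, which at this depth does not show that they are absent.

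Processing and degradation genes were present at low levels. Pcsk1, the convertase PC1/3, had 11 UMIs in Foxp3-positive cells (11.0 CPM) and 6 in Foxp3-negative cells (1.07 CPM) of replicate 1, and 4 (2.24 CPM) and 2 (0.277 CPM) in replicate 2. Both Foxp3-positive values lay above both Foxp3-negative ones, but the gene did not pass the filter and was not tested. The share of all genes separated in this way was not computed. Pcsk2, the convertase PC2, had 0. Furin, a convertase of the trans-Golgi, stood at 41.0 against 32.5 and at 15.1 against 17.4 CPM, so its direction differed between replicates. None of the 6 processing genes tested (median log2 change 0.02) and none of the 5 degradation genes (0.02), against -0.02 over all genes, was called with the block. Among peptidases that degrade enkephalin, Lnpep stood highest, at 117 against 113 and 167 against 161 CPM, and Mme, which encodes neprilysin, had 0.

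Markers of other cells were checked beside Penk. The T cell rule had already allowed at most 1 UMI of 9 of these markers together, so their low levels were partly set by that rule. Those 9 include Cldn5, Dcn, Col1a1, Lyz2, C1qa, Csf1r, Cd79a and Ms4a1. In T cells the endothelial gene Cldn5 had 0 UMIs in both replicates. Pecam1, the other gene of that list, stood at 31.4 and 39.0 CPM, in 9.36% and 7.45% of T cells. By Foxp3 it stood at 32.0 against 31.3 CPM and at 45.9 against 37.3 CPM. The 3 fibroblast genes summed to 24.0 CPM in Foxp3-positive and 24.2 CPM in Foxp3-negative cells of replicate 1 and to 1.12 and 3.18 CPM in replicate 2. The fibroblast genes summed to 8.05 CPM in Penk-positive against 24.8 CPM in Penk-negative T cells of replicate 1 and to 11.8 against 2.42 CPM in replicate 2. The 5 myeloid genes summed to 201 against 232 CPM and 190 against 207 CPM by Foxp3, but were found in more of the Foxp3-positive cells, 55.1% against 42.2% and 33.4% against 25.3%. By Penk they summed to 189 against 228 and 284 against 201 CPM. The 3 B cell genes were higher in Foxp3-positive cells, at 15 against 4.09 and 20.7 against 7.74 CPM, and the part of these markers in the result was not tested. Penk was also frequent in some cells that failed the T cell rule: in replicate 1, 20 of 105 such cells with at least 2 fibroblast UMIs held it (19.0%), while in replicate 2 0 of 10 did.

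In the hippocampus Penk was almost absent from the libraries. It had 2 UMIs in 2 of 6863 DTRneg cells (0.0291%, interval 0.00353 to 0.105) and 1 UMI in 1 of 5691 DTRpos cells (0.0176%, up to 0.0979). The levels were 0.0407 CPM (0.00492 to 0.147) and 0.0298 CPM (up to 0.166), and the log2 ratio of DTRpos to DTRneg was -0.45 with an interval from -6.33 to 3.82. No effect of regulatory T cell depletion on Penk could be read at this depth in either direction, and with 1 library per group there is no test.

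The 3 hippocampal cells with Penk are described singly. A DTRneg cell with 6416 UMIs had 11 UMIs of Pdgfra, the receptor that marks oligodendrocyte progenitor cells (OPCs), and 33 of Ptprz1, and was OPC-like. A second DTRneg cell with 3439 UMIs had 5 Pdgfra and 3 Mog UMIs and met no class by the marker rule. The DTRpos cell, with 5957 UMIs, had none of the 6 class markers and 26 Ptprz1 UMIs, and lay in an astrocyte-like cluster. Gad1 and Gad2, markers of inhibitory neurons, were at 0 in all 3. Of the general neuron markers, Snap25 had 3 UMIs and Syt1 1 UMI in the OPC-like cell. Both were at 0 in the other cells.

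By class, OPC-like cells (at least 2 Pdgfra UMIs and none of the other class markers) held Penk in 1 of 605 DTRneg cells (0.165%, interval 0.00418 to 0.917; 0.305 CPM) and 0 of 743 DTRpos cells, which allows a share of up to 0.404% and a level of up to 0.886 CPM. Mature oligodendrocyte-like cells, set by Mog, held it in 0 of 3546 and 0 of 2459 cells, which allows up to 0.0846% and 0.122%. Astrocyte-like cells (Aqp4) held it in 0 of 596 and 0 of 629 cells, up to 0.503% and 0.477%. Endothelial-like cells (Cldn5) held it in 0 of 460 and 0 of 331 cells, up to 0.652% and 0.906%, and neuroblast-like cells (Igfbpl1) in 0 of 168 and 0 of 125, up to 1.79% and 2.40%. Fibroblast-like cells (Dcn) held it in 0 of 55 and 0 of 43. For the fibroblast-like cells that allows shares of up to 5.45% and 6.98%, which is too wide to compare with the T cells. The classes cannot be ordered by Penk, because their intervals all overlap. All other fixed markers of each class were raised at least 1.5-fold in it in both libraries.

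**Figure D5:**
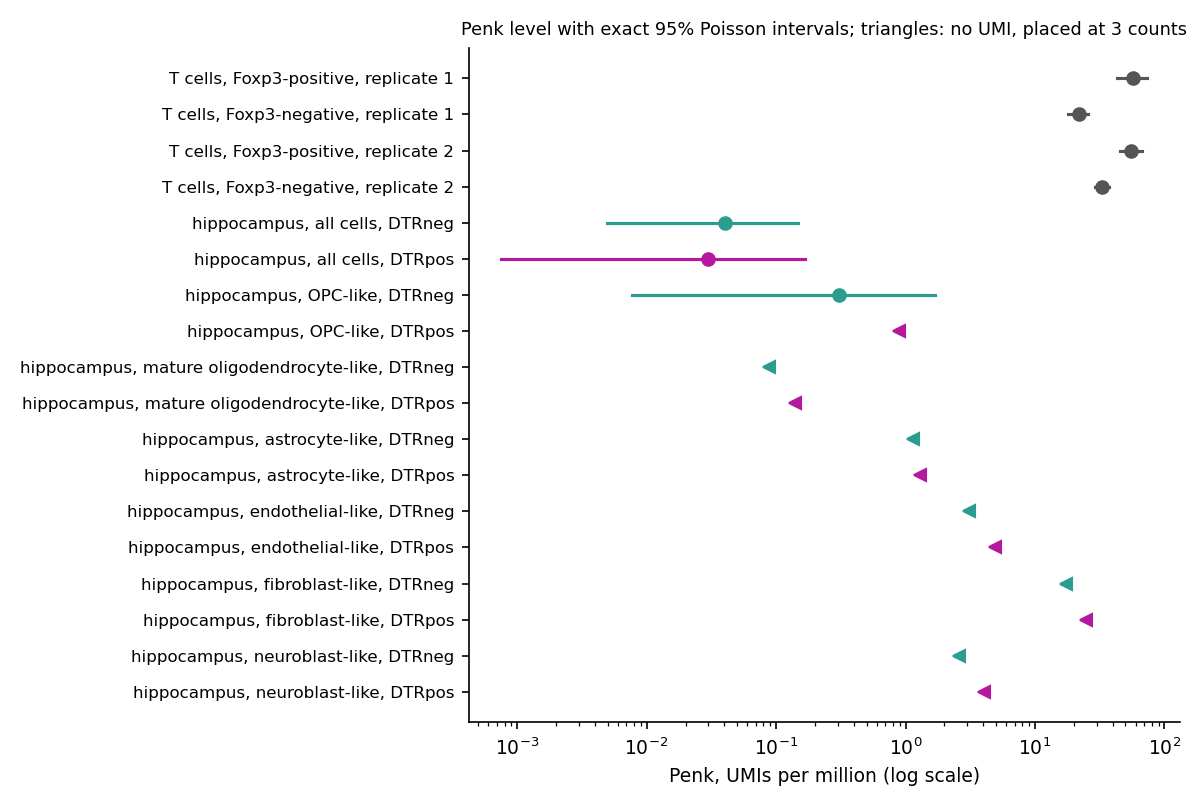
Penk in CPM (log axis) in Foxp3-positive and Foxp3-negative T cells of both replicates and in all cells and each marker class of the DTRneg and DTRpos hippocampal libraries. Points with lines are levels with exact 95% Poisson intervals, and triangles mark sums with no Penk UMI at the level that 3 UMIs would give. The T cell sums lie between 21.7 and 57.0 CPM and the hippocampal sums with a UMI between 0.0298 and 0.305 CPM.

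Every T cell sum had a higher Penk level than the whole of either hippocampal library. The order was Foxp3-positive cells of replicates 1 and 2 (57.0 and 55.4 CPM), whose intervals overlap, then Foxp3-negative cells of replicates 2 and 1 (32.9 and 21.7 CPM), whose intervals do not, and then each hippocampal library as a whole. The OPC-like interval reached 1.70 CPM, and 3 UMIs would be 17.4 and 24.9 CPM in the fibroblast-like classes, so those cannot be placed below the Foxp3-negative T cells. Tissue, sort, mouse line and library preparation all differ between the T cell and hippocampal libraries and cannot be told apart.

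Some other pathway genes were measured well enough in the hippocampus to be compared between DTRpos and DTRneg, with 6 of the 30 at 50 CPM or more in all cells and 9 in OPC-like cells. In OPC-like cells Pcsk2 stood at 167 CPM in DTRneg and 159 CPM in DTRpos, the carboxypeptidase gene Cpe at 459 and 471 CPM, and Pcsk1n, the convertase inhibitor proSAAS, at 1699 and 1900 CPM. Oprl1, the nociceptin receptor, stood at 29.0 and 27.5 CPM, and Ackr3, a scavenger receptor that binds enkephalins, at 48.3 and 42.8 CPM. Oprd1, Oprm1 and Oprk1 had 0 UMIs in OPC-like cells of both libraries. Of the other precursors, Pomc had 29 and 25 UMIs, Pdyn 3 and 1, and Pnoc 2 and 3 in these cells.

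No pathway gene at 50 CPM or more in either library differed by 2-fold in all cells, where 11 of 3390 genes did (0.324%), or in OPC-like cells, where 12 of 4273 did (0.281%). The same held in mature oligodendrocyte-like (0.257% of all genes), astrocyte-like (0.23%), endothelial-like (1.32%) and neuroblast-like cells (0.918%). In the few fibroblast-like cells, where 19.6% of all genes passed 2-fold, 2 pathway genes did, Pcsk1n with 0 UMIs in DTRneg and 15 in DTRpos and Npepps with 4 and 9. In OPC-like cells the median log2 ratio was -0.01 over the 7 processing genes at that level and 0.05 over all such genes. Ctsl, a cathepsin that can also cut proenkephalin, was lower in DTRpos in OPC-like cells (255 and 209 CPM, log2 ratio -0.29, interval -0.44 to -0.15) and in astrocyte-like cells (408 and 312 CPM, -0.38, -0.52 to -0.25). These intervals lie below 0 for counting error, but the spread between animals is unknown. In endothelial-like cells Pomc stood at 78.1 and 66.0 CPM, the highest level of any precursor in these classes.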

How the data were processed

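The deposited matrices hold counts of UMIs per gene and cell, with hashtag counts and T cell receptor contigs for the meninges. The matrices name Cell Ranger 4.0.0, 6.0.0 and 6.1.0, per the file headers, and Cell Ranger 6.1.0, Seurat and mm10 are named in the submitters' processing notes. For the T cells the labels and the design text disagree on whether 3′ or 5′ chemistry was used, and strand use in counting is not given in the sources used here. The labels give both meningeal samples 1 hashtag sequence, which matches only replicate 2, so hashtags 7 and 10 were taken by name.

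Cells needed at least 500 genes, at most 10% (meninges) or 15% (hippocampus) mitochondrial UMIs and, for the meninges, at least 10 counts of their hashtag and 2 times the next. T cells had at least 1 T cell marker UMI and at most 1 UMI of 9 markers of other cells. Scrublet doublets were removed from the hippocampus (242 and 158 cells), and T cell doublets were judged by hashtag and beta chains only. UMIs were summed per replicate and group and tested with edgeR 4.0.16 (quasi-likelihood, TMM, filterByExpr, Benjamini-Hochberg threshold 0.05), checked on simulated counts, with DESeq2 1.42.0 as an alternative. The labels do not say how many animals gave each meningeal sample, so p-values without the block measure only the spread between the 2 samples, which may be technical. The block takes out the difference between the samples and leaves little to estimate spread from. Its p-values can be very small where the replicates differ. Car1 had an adjusted p of 8.54e-167 in edgeR with the block by Penk, with 0 UMIs in replicate 2. The deviations of same-numbered sums from their group means correlated at r = 0.79 over 11242 genes in the Foxp3 comparison and 0.56 over 11005 in the Penk comparison; a number marks 1 library from the same animals, hence the block. In the hippocampus exact binomial and Poisson intervals (95%) replace tests, a count of 0 is given as 3 counts, and a fold of 2 at 50 CPM is the call. Clusters used scanpy 1.11.5 (Leiden, resolution 1, 30 components). Cells were thinned to 1000 UMIs as an alternative, and for T cells Foxp3 status was then read from the thinned counts.

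The named genes were those past the threshold with one direction in both replicates, or, as none passed, the 10 with the smallest p, and the 5 most correlated with Penk over T cells. Penk, the gene lists and the tests were chosen with earlier results of these data known. The gene annotation and transcript sequence are from GENCODE M21.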

Additional observations from a re-analysis of the deposited data

Results flagged for a closer look

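Penk appeared in meningeal cells outside the T cell comparison. Of the cells that failed the T cell rule, 25 of 180 in replicate 1 held a Penk UMI, 13.9% (exact 95% interval 9.19 to 19.8), against 2 of 146 in replicate 2, 1.37% (0.166 to 4.86). They are given here because these cells entered none of the main comparisons, although those with a T cell marker entered the alternative that allowed markers of other cells. In replicate 1 the 105 with at least 2 fibroblast UMIs had Dcn at 5253 CPM, Adamdec1 in 42.9% of cells and 0 UMIs of the meningeal fibroblast gene Foxc1. The difference between the replicates was not tested.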

How the results depend on the processing

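The direction of Penk, higher in Foxp3-positive T cells, held in each fit and each replicate, but its call needed the replicate block. Among cells of hashtag margin 2 to 5 in replicate 2, which were not fitted alone, the level was 64.1 against 72.0 CPM. The level was also lower in Foxp3-positive cells with 0 beta chains (replicate 1) and with 2 or more (replicate 2). Those cells were not fitted alone either. With the replicate block its log2 change was 0.97 (adjusted p 4.23e-06), and 1.03 (adjusted p 0.498) when cells were also thinned; without replicate 1 or 2 it was 0.75 to 1.39 as a value with no test. The mean share difference of 2.79 points was 1.26 at a hashtag margin of 5, 1.55 at 20, 1.69 after thinning, 4.70 with at least 2 Foxp3 UMIs, 3.56 with a Cd4 UMI and 3.33 at 1000 genes, and 2.48 to 3.10 without replicate 1 or 2. Genes called by Foxp3 numbered 0, against 668 with the replicate block, 161 without a filter and 23 by DESeq2; with the block they were 413 at a margin of 20, 87 after thinning and 337 with a Cd4 UMI. By Penk they numbered 0, against 181 with the replicate block, 68 without a filter and 10 by DESeq2; with the block they were 81 at a margin of 20, 103 with at most 1 beta chain and 472 with markers of other cells allowed. Of the opioid pathway genes the block called 1, Penk, by Foxp3 in each setting but thinning (0), and 2 with markers of other cells allowed; by Penk it called 2 in that last setting. Trav14-3, with 9 and 16 UMIs in the Penk-positive sums before that limit, reversed to -7.69 at a margin of 20, with and without the block. In both hippocampal libraries thinning to 1000 UMIs, or leaving out the 5 richest cells, left 0 CPM of Penk. The allowing of other markers, the gut gene limit, the invariant chain and, for the Penk comparison, Foxp3-negative cells, 2 Penk UMIs and a margin of 5 were added after seeing the data. The Penk comparison within Foxp3-positive cells (11 in the smallest group) and after thinning (17) was not run, nor the comparison within OPC-like cells, where 1 cell held Penk, nor likeness over hippocampal classes, where 1 of 12 sums did. The cause was not tested for any of these changes. The few Penk UMIs limit the hippocampal values: OPC-like DTRneg cells held 0.55 CPM with the class marker above all others together and 0.475 CPM in Leiden classes, 2 cells each, and Leiden classes put 1 Penk cell in DTRpos astrocyte-like cells.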

Other observations

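Transcripts of gut epithelium were widespread in replicate 1 and not found in replicate 2. A list of 11 genes chosen after seeing the data, among them the goblet cell mucin gene Muc2 and Car1, had UMIs in 78.7% of the T cells of replicate 1, at 3498 CPM, with 38.7% of them in 1 cell. In replicate 2 the list had 0 UMIs. Among Penk-positive T cells of replicate 1, 1 cell held 92.4% of the UMIs of this list. With cells limited to 5 such UMIs, Penk was still in a larger share of Foxp3-positive cells, by 3.30 points in replicate 1. With that limit and the replicate block, Penk kept a log2 change of 0.96 by Foxp3 (adjusted p 8.49e-05, edgeR), 612 genes were called by Foxp3 in place of 668, and 143 by Penk in place of 181.

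In each meningeal library most Penk UMIs lay outside the analysed cells. All barcodes together held 4240 Penk UMIs among 60890248 UMIs in replicate 1 and 4170 among 68830571 in replicate 2. The cells that passed held 269 and 339 of them, at 34.1 and 36.0 CPM. Whether Penk RNA from the other barcodes reached the analysed cells was not tested.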
